A study of Caenorhabditis elegans with 8 samples.

Results

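The fbxc genes of the nematode Caenorhabditis elegans encode F-box proteins, and they are described here by the small RNA reads that fall on them. Every gene named fbxc- followed by a number in the count files was taken, which gave 49 of 20191 genes. Of these, 10 had 80 or more reads summed over the 8 libraries and are described in full. The libraries came from whole animals in 4 groups of 2: the wild-type strain N2 and the strain YY1683, each on 2 foods. YY1683 carries a mutation that the series title writes as zsp-1 and the genotype label as zap-1, and it is called the zsp-1 mutant below. All animals were kept at 20 °C on HT115 bacteria, which carried either the empty vector L4440 or a construct for double-stranded RNA of oma-1 (oma-1 RNAi). The labels give them as gravid adults on day 1 and, in the extraction text, as young adults. The labels do not say what the mutation changes, and whether both libraries of a group had their own culture is not stated either. The p-values therefore measure how far these samples spread, and that spread may be technical.

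F-box proteins are the adaptors of SCF ubiquitin ligases. The F-box binds a Skp1-like protein, which links it to a cullin, and the rest of the protein binds the substrate that is to be ubiquitylated. Nematodes carry large, fast-changing families of F-box genes, of which fbxa, fbxb and fbxc are the named examples in this species, and the roles of the single fbxc genes described here are mostly not established. In worms, RNA-dependent RNA polymerases copy messenger RNAs into small interfering RNAs (siRNAs), and ZSP-1 is found in Z granules, which belong to the germ granules where such siRNAs are handled. Reads at an fbxc gene therefore report small RNAs that match it and not the amount of its messenger RNA or protein.

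Library totals ranged from 136908 to 340932 reads, so the levels of genes with few reads have wide errors. Levels are given as CPM (counts scaled to the TMM-adjusted total of the tested genes in each library). The mutated gene, called pid-2 in the files, stood at 318 to 539 CPM in the 4 wild-type libraries and at 17.4 to 43.3 CPM in the 4 mutant libraries. Reads at oma-1 stood at 130 to 195 CPM in the 4 libraries on L4440 and at 11190 to 22980 CPM in the 4 on oma-1 RNAi. Both checks went with the labels. Small RNA reads at marker genes do not identify tissues, and a list of 6 germline genes held 0.141 to 0.187% of reads in wild type and 0.122 to 0.143% in the mutant. In a list of 6 sperm genes, of which spe-9 and msp-31 had 0 reads, the share was 0.0169 to 0.0197% in wild type and 0.120 to 0.188% in the mutant, and its part in the results below was not tested. The 4 muscle genes held 1 wild-type read and 4 mutant reads, with myo-3 and tni-3 at 0, and the 4 intestine genes held 3 and 7. The 4 neuron genes held 74 and 109 reads.

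Small RNA reads were spread very unevenly over the fbxc family. Of the 49 genes, 18 had 0 reads in all 8 libraries, 13 had 1 to 7 reads in all, 8 had 21 to 78 and 10 had 84 to 1016. The 10 genes held 3444 of the 3872 fbxc reads (88.95%), and fbxc-43, fbxc-37 and fbxc-39 alone held 2190 (56.6%). Among all genes of the files 36.5% had 0 reads and 20.0% had 80 or more, and among fbxc genes the shares were 36.7% and 20.4%. By these shares the uneven spread is not particular to fbxc. How strongly reads concentrate in a few genes was not compared with other gene sets. Just inside the threshold of 80 stood fbxc-50 with 84 reads and fbxc-38 with 96, and just outside it fbxc-23 with 78 and fbxc-28 and fbxc-52 with 66 each. The family as a whole took 0.252 and 0.258% of reads in wild type on L4440 and 0.214 and 0.277% on oma-1 RNAi. In the mutant it took 0.171 and 0.215% on L4440 and 0.177 and 0.185% on oma-1 RNAi. The wild-type mean share was 0.250 ± 0.0266% and the mutant one 0.187 ± 0.0194% (SD, n = 4 each), and the highest mutant library (0.2147%) lay just above the lowest wild-type library (0.2137%). As a share of the reads outside oma-1 this order was turned, with 0.2148% against 0.2176%, and the genotypes did not overlap. The 2 X-linked members, fbxc-37 and fbxc-38, held 0.1315 and 0.04959% of all reads in wild type on L4440 and 0.03315 and 0.05336% on oma-1 RNAi. In the mutant they held 0.01203 and 0.02483% on L4440 and 0.01182 and 0.02028% on oma-1 RNAi. Much of the lower share in the mutant therefore lay at these X-linked genes, and it does not describe the family as a whole.

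By position, 35 fbxc genes lay on chromosome II, 12 on IV and 2 on X (WBcel235 coordinates of the files), and the 10 genes with 80 or more reads were 6, 2 and 2 of these. With neighbours joined where their starts were at most 50 kb apart, 32 genes fell into 3 clusters of at least 3 members. The cluster on IV (891239 to 911196) held 10 genes on the plus strand in 19.96 kb, and all 10 had 0 reads in every library. These 10 genes were regular in length and spacing: 5 had an exon length of 1128 bases and 5 of 1413 bases in strict alternation. Genes of the same length followed each other at 4152 or 4153 bases. How alike their sequences are was not tested. The Ensembl annotation of the same build gives these 10 loci 4 names in all. Reads that match several places may be counted or dropped, and which was done is not given in the sources used here, so the 0 is a count of assigned reads; 3 reads over the 8 libraries would correspond to 1.675 CPM. A small cluster on II (1689696 to 1694615) held fbxc-22, fbxc-21 and fbxc-26 with 0, 2 and 21 reads.

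The large cluster on II (868814 to 993638) held 19 fbxc genes and 16 other genes in 124.8 kb. It had 1036 reads or 26.76% of those of the family, and they were concentrated at its far end. In wild type fbxc-39 had 307 CPM per kb of exon, fbxc-18 had 75.4, fbxc-40 had 73.9 and fbxc-28 had 54.5, while the other 15 genes of the cluster had 0 to 21.75. fbxc-24 and fbxc-7 had 0 reads. Of the 16 other genes 1 was tested, C32B5.6, which had 771 wild-type and 524 mutant reads and was not called in the genotype comparison (log2 -0.40, adjusted p = 0.28).

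**Figure D1:**
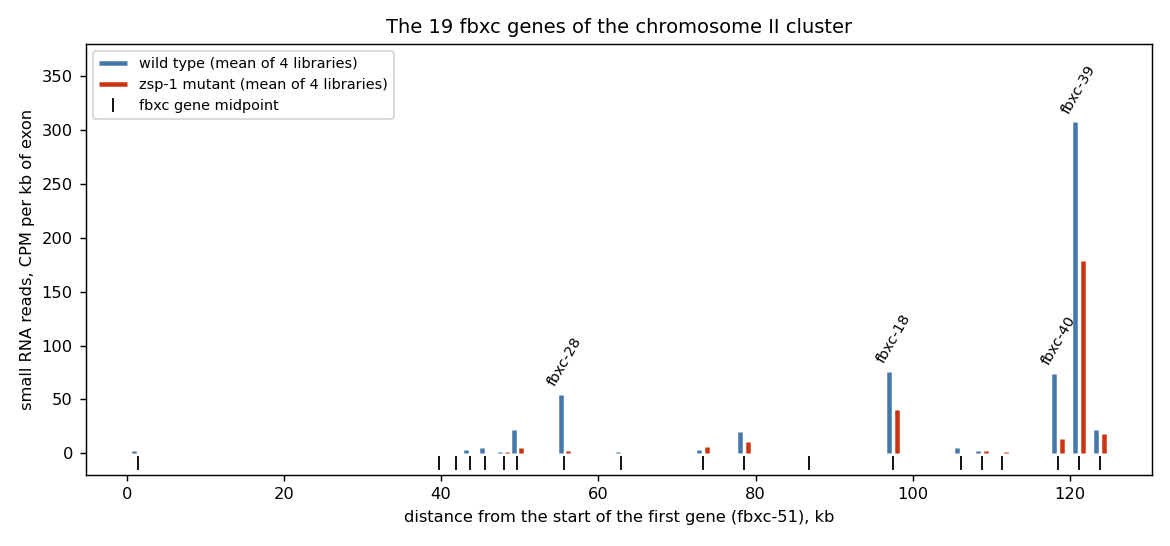
Mean small RNA level per kb of exon (vertical axis, CPM per kb) at the 19 fbxc genes of the large chromosome II cluster, against the distance of each gene's midpoint from the start of fbxc-51 (horizontal axis, kb), with lines for wild type and the zsp-1 mutant (4 libraries each). fbxc-39 reached 307 CPM per kb in wild type and 179 in the mutant, and most of the other genes lay near 0.

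The main comparison asks how small RNAs at these genes differ between the zsp-1 mutant and wild type. Averaged over both foods, reads fell in the mutant at 5 of the 10 genes (fbxc-37, fbxc-38, fbxc-40, fbxc-18 and fbxc-39), rose at 2 (fbxc-44 and fbxc-45), and were not called at 3 (fbxc-43, fbxc-47 and fbxc-50). Among all 4567 tested genes 11.8% fell and 11.3% rose. In 6 of the 10 genes the 4 libraries of one genotype did not overlap the 4 of the other, against 24.5% of all tested genes. Among these 6 are fbxc-38 and fbxc-40, which passed the filter on low counts through wild-type libraries alone. That favoured a separation of the genotypes, so the share over all tested genes is not a like comparison for them. The filter on low counts also let in fbxc-28 and fbxc-23, which both fell, so that 7 of the 12 tested fbxc genes fell and 2 rose, with a median log2 fold change of -0.86 against -0.08 over all tested genes. Of the 12, fbxc-38, fbxc-40, fbxc-28 and fbxc-23 passed the filter through wild-type libraries alone and had to be lower in the mutant. The remaining 8 passed it in each genotype, and of these 3 fell, 2 rose and 3 were not called, where 7.81% of such genes fell and 10.1% rose over all genes. The number of falls among the 12 was 3 with DESeq2, 3 without the second wild-type library on oma-1 RNAi or the first mutant library on L4440, and 4 without the first wild-type library on L4440 or the first mutant library on oma-1 RNAi.

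**Figure D2:**
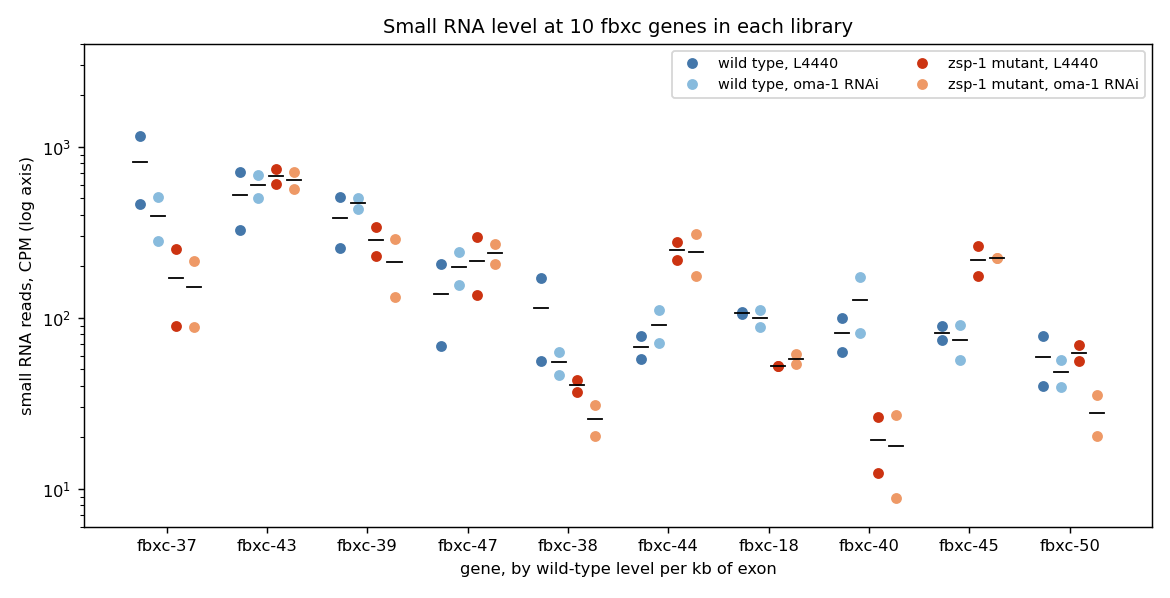
Small RNA level of the 10 fbxc genes with 80 or more reads in each of the 8 libraries (vertical log axis, CPM), coloured by group, with a line at the mean of each group of 2. The mutant points lie above all wild-type points at fbxc-44 and fbxc-45 and below all of them at fbxc-37, fbxc-38, fbxc-18 and fbxc-40.

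On chromosome X lie fbxc-37 (1779388 to 1780527, plus strand) and fbxc-38 (8143806 to 8145027, plus strand), both pseudogenes by the RefSeq annotation. fbxc-37 stood at 1163 and 463 CPM in replicates 1 and 2 of wild type on L4440, 281 and 507 on oma-1 RNAi, and in the mutant at 89.7 and 253 on L4440 and 88.1 and 216 on oma-1 RNAi. All 4 mutant libraries were below all 4 wild-type libraries, and the first wild-type library on L4440 was more than double any other. The means were 604 ± 386 CPM in wild type and 162 ± 85.4 CPM in mutants (SD, n = 4 each), which gave a log2 fold change of -1.91 (SE 0.34, adjusted p = 8.17e-05) or 3.77-fold lower in the mutant. This call was kept in all 15 alternative fits, and the log2 change was between -2.27 and -1.51 with any single library left out.

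Reads at fbxc-38 stood at 172 and 55.7 CPM in wild type on L4440 and 46.3 and 63.4 on oma-1 RNAi, against 37.1 and 43.6 and then 30.8 and 20.3 in the mutant. The genotypes did not overlap, but 46.3 and 43.6 CPM are close. Its log2 fold change over both foods was called at -1.27 (SE 0.40, adjusted p = 0.0197). It was -0.73 with an adjusted p of 0.326 without the first wild-type library on L4440, and the call was also lost with DESeq2 (0.129) and without the second wild-type library on oma-1 RNAi (0.0972), the first mutant library on L4440 (0.0807) or the second mutant library on oma-1 RNAi (0.0629). Both genes sit on a chromosome where falls were frequent: of 217 tested X-linked genes 35.5% fell in the mutant and 13.4% rose. Of the 128 that passed the filter in each genotype, as fbxc-37 did, 38 fell and 18 rose. Of the other 89, 39 fell and 11 rose. fbxc-38 is among these, as it passed through wild-type libraries alone and had to be lower in the mutant.

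The highest fold among the falling genes with 80 or more reads was at fbxc-40 on chromosome II (986003 to 988666, plus strand). Its level was 63.0 and 100.3 CPM in wild type on L4440 and 81.9 and 174 on oma-1 RNAi, and in the mutant 12.4 and 26.2 and then 8.81 and 27.0. The mutant libraries held 4, 3, 2 and 4 reads, and the highest of them lay below the lowest wild-type library. Means of 105 ± 48.7 CPM in wild type and 18.6 ± 9.36 CPM in mutants (SD, n = 4 each) gave a log2 fold change of -2.60 (SE 0.44, adjusted p = 3.78e-05), 6.08-fold lower, and the call was kept in all 15 alternative fits. In reads, 96 in wild type stood against 13 in the mutant, and the ratio of their shares of all reads was 7.12 (exact 95% interval 3.97 to 13.85, counting error only). Since fbxc-40 passed the filter through wild-type libraries alone, its direction was set by the filter and these values do not test it.

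fbxc-39 (988737 to 991074, plus strand) starts 70 bases after the end of fbxc-40 and held many more reads. It stood at 258 and 507 CPM in wild type on L4440 and 434 and 503 on oma-1 RNAi, and in the mutant at 229 and 340 and then 132 and 290. The genotypes overlapped, since the first wild-type library on L4440 lay within the mutant range. The log2 fold change, -0.83 (SE 0.27), was called (adjusted p = 0.0243), but not with DESeq2 (0.0986). Leaving out single libraries gave an adjusted p of 0.184 without the second wild-type library on L4440, 0.0881 without the second on oma-1 RNAi, 0.184 without the first mutant library on L4440 and 0.235 without the first on oma-1 RNAi.

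A smaller fall was found at fbxc-18 (965576 to 967062, minus strand), in the same cluster. Its level was 109 and 106 CPM in wild type on L4440 and 89.0 and 111 on oma-1 RNAi, against 52.6 and 52.3 and then 61.7 and 54.03 in the mutant. These values were tight within each genotype and did not overlap between them. They gave a log2 fold change of -0.89 (SE 0.28, adjusted p = 0.0206). Its call was lost with DESeq2 (0.22) and with no filter on low counts (0.0762). It was also lost without the first (0.0563) wild-type library on L4440, the second (0.0889) on oma-1 RNAi, the first mutant library on L4440 (0.0949), and the first (0.0547) or second (0.0673) mutant library on oma-1 RNAi.

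Below the threshold of 80 reads, fbxc-28 (II, 923821 to 925192, plus strand) had 11, 9, 13 and 30 reads in the wild-type libraries and 3, 0, 0 and 0 in the mutant ones. All its mutant reads were in the first library on L4440. The 63 wild-type against 3 mutant reads gave a share of all reads 20.2-fold lower in the mutant (exact 95% interval 6.61 to 100.7, counting error only). In the edgeR fit its log2 fold change was -5.05 (adjusted p = 2.33e-05). It passed the filter through wild-type libraries alone, so its direction was set by the filter and these values do not test it. On oma-1 RNAi, with 43 reads against 0, the mutant was at least 10.5-fold lower, with 3 reads taken as the floor of the whole group. fbxc-23, the fbxc gene farthest from the others on II (13595006 to 13596551, minus strand), had 10, 9, 17 and 23 wild-type reads and 4, 6, 4 and 5 mutant reads. In CPM its genotypes overlapped slightly, the second mutant library on L4440 having 52.3 against a wild-type minimum of 50.2. Like fbxc-28, it passed the filter through wild-type libraries alone and had to be lower in the mutant. It fell by a log2 fold change of -1.36 (SE 0.45, adjusted p = 0.0265), but the gene was no longer called with DESeq2 (0.19), nor without the first wild-type library on L4440 (0.0504), the second on oma-1 RNAi (0.201), the first mutant library on L4440 (0.298) or the first on oma-1 RNAi (0.16).

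In the opposite direction, fbxc-44 and fbxc-45 gained reads in the mutant. fbxc-44 (II, 4236504 to 4237751, minus strand) stood at 57.3 and 78.0 CPM in wild type on L4440 and 71.2 and 111 on oma-1 RNAi, and in the mutant at 219.5 and 279 and then 308 and 176. Every mutant library was above every wild-type library. Wild type averaged 79.4 ± 22.7 CPM and the mutant 246 ± 59.5 CPM (SD, n = 4 each), for a log2 fold change of 1.64 (SE 0.27, adjusted p = 2.91e-05) or 3.12-fold. fbxc-45 (IV, 2919826 to 2922251, minus strand) lies alone and stood at 74.5 and 89.2 CPM in wild type on L4440 and 57.0 and 91.1 on oma-1 RNAi, against 176 and 262 and then 225 and 223 in the mutant. Here too the genotypes were apart, with a wild-type mean of 78.0 ± 15.8 CPM and a mutant mean of 221 ± 35.0 CPM (SD, n = 4 each). Its log2 fold change of 1.48 (SE 0.26, adjusted p = 6.71e-05) is a 2.78-fold rise, and both calls were kept in all 15 alternative fits.

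The gene with the most reads of the family, fbxc-43 (II, 4234950 to 4235982, minus strand), was not called. It stood at 327 and 713 CPM in wild type on L4440 and 506 and 685 on oma-1 RNAi, and in the mutant at 609 and 741 and then 568 and 709. The genotypes overlapped, with a log2 difference of 0.23 (95% interval -0.27 to 0.73, adjusted p = 0.618). fbxc-47 (IV, 3805485 to 3806711, plus strand) overlaps M02B7.7 on the opposite strand, so its reads may belong to either gene. It stood at 68.8 and 206 CPM in wild type on L4440 and 157 and 242 on oma-1 RNAi, against 136 and 296.5 and then 207 and 270.2 in the mutant. Its log2 difference was 0.39 (-0.23 to 1.01, adjusted p = 0.443), and it was 0.91 with an adjusted p of 0.0273 without the second wild-type library on L4440. fbxc-50 (II, 3246316 to 3248174, minus strand) ranged from 39.6 to 78.0 CPM in wild type and from 20.3 to 69.8 in the mutant, with a log2 difference of -0.35 (-1.15 to 0.44, adjusted p = 0.638). These 3 intervals reach from a fall to a rise, so no change in either direction was shown.

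**Figure D3:**
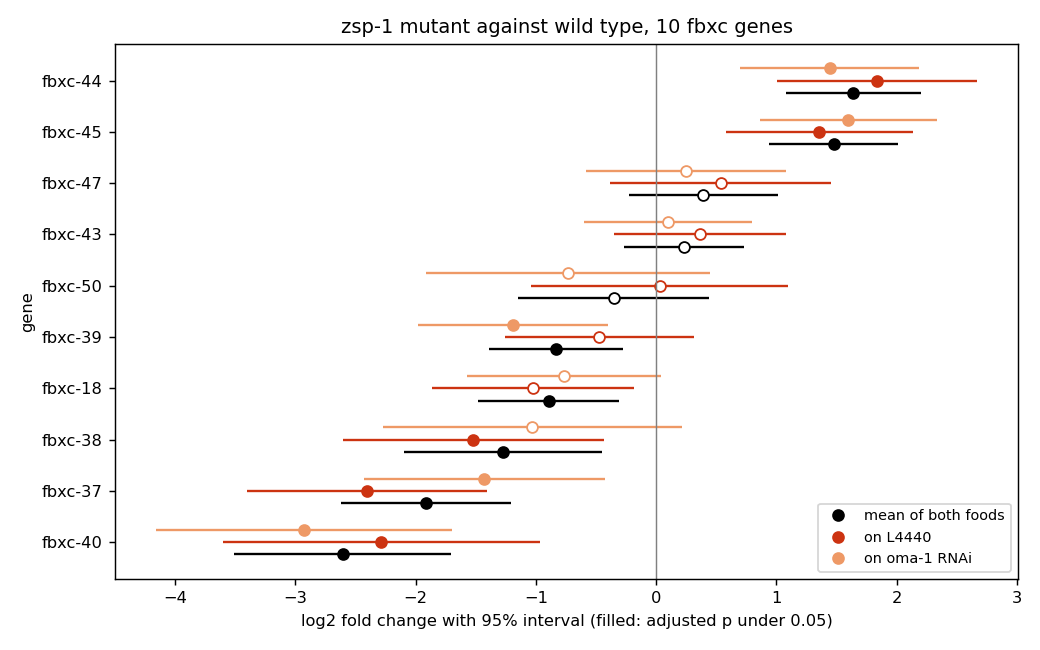
Log2 fold change of the zsp-1 mutant against wild type (horizontal axis) at the 10 fbxc genes, with approximate 95% intervals, averaged over both foods (black) and on each food alone (red and orange); filled points had an adjusted p under 0.05. The averaged values run from -2.60 at fbxc-40 to 1.64 at fbxc-44.

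Pairs of adjacent fbxc genes with 80 or more reads each were compared within libraries, which needs no scaling. There were 2 such pairs: fbxc-40 with fbxc-39, and fbxc-44 with fbxc-43, whose ends are 521 bases apart. The ratio of fbxc-40 to fbxc-39 reads was 0.244 and 0.198 in wild type on L4440 and 0.189 and 0.346 on oma-1 RNAi, against 0.0541 and 0.0769 and then 0.0667 and 0.0930 in the mutant. The ratio of fbxc-44 to fbxc-43 reads was 0.175 and 0.109 and then 0.141 and 0.162 in wild type, against 0.360 and 0.376 and then 0.543 and 0.248 in the mutant. Neither ratio overlapped between genotypes. On the log2 scale, with 0.5 added to each count, the first ratio was lower in the mutant by -1.56 and the second higher by 1.32 (p = 0.0286 each, exact permutation test two-sided, 70 arrangements of the genotype labels, adjusted p = 0.0286 over the 2 pairs). That is the smallest p that 4 against 4 libraries can give. fbxc-40 passed the filter on low counts through wild-type libraries alone, and 96 of its 109 reads were in wild type. The direction of the first ratio was therefore partly set by the choice of the gene, and its p is no test of that direction. With the replicate numbers as a block neither ratio passed: exchanging labels only within a replicate number gave an exact p of 0.0556 for each (36 arrangements), and only within a food and replicate number 0.125 (16 arrangements), the smallest p that these blocks can give. The second ratio also had an exact p of 0.0571 without the second wild-type library on L4440 or the first on oma-1 RNAi. The adjacent genes outside the second pair were not called: C16A11.10, 329 bases from fbxc-43, had a log2 change of -0.06 (adjusted p = 0.919), and C16A11.2, 407 bases from fbxc-44, one of 0.10 (0.873).

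**Figure D4:**
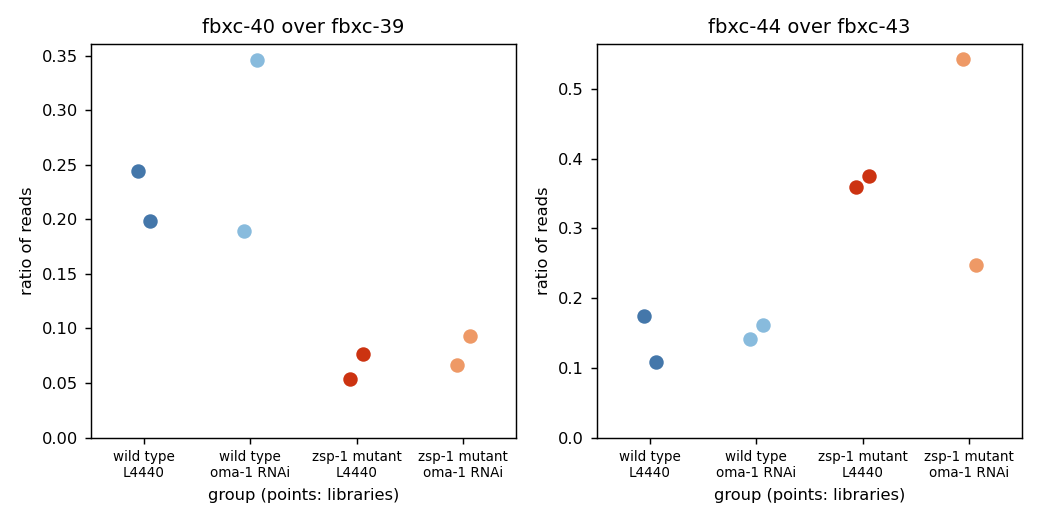
Ratio of reads between adjacent fbxc genes in each library (vertical axis from 0), by group. fbxc-40 over fbxc-39 lay between 0.189 and 0.346 in wild type and at most at 0.0930 in the mutant, and fbxc-44 over fbxc-43 at most at 0.175 in wild type and at least at 0.248 in the mutant.

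Per kb of exon, the order of the 10 genes differed between the genotypes. In wild type fbxc-37 (792 ± 506 CPM per kb, SD, n = 4) and fbxc-43 (666 ± 214) were within their spread of each other and led the family, followed by fbxc-39 (307 ± 84.2) and fbxc-47 (149 ± 66.4). The next genes, fbxc-38, fbxc-44, fbxc-18, fbxc-40 and fbxc-45, had 103 to 72.0 CPM per kb and lay within their spread of each other, and fbxc-50 was last with 46.3 ± 15.6. In the mutant fbxc-43 stood above the others with 785 ± 97.7. Then came fbxc-44 (249 ± 60.4), fbxc-37 (212 ± 112), fbxc-45 (205 ± 32.3), fbxc-47 (201 ± 63.4) and fbxc-39 (179 ± 64.7), which were within their spread, and fbxc-38, fbxc-18 and fbxc-50 with 40.2 to 39.0. fbxc-40 was last with 13.1 ± 6.59. The median of all tested genes was 57.4 CPM per kb in wild type and 56.2 in the mutant. Against all tested genes fbxc-44 went from percentile 65.5 to percentile 88.4 and fbxc-45 from 60.7 to 86.1, while fbxc-43 was at 96.0 and 96.2.

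On each food alone, 2 against 2 libraries were compared. On L4440, where 7.66% of all tested genes fell and 8.74% rose, 3 of the 10 genes fell and 2 rose. On oma-1 RNAi, where 7.38% fell and 8.36% rose, the counts were again 3 and 2. The falls of fbxc-38 on L4440 and of fbxc-40 on each food were at genes that passed the filter through wild-type libraries alone, as did fbxc-28 and fbxc-23. The filter favoured a fall at these genes, so the shares over all tested genes are not a like comparison for them. fbxc-44 and fbxc-45 rose on each food: fbxc-44 by 1.84 (SE 0.40) and 1.44 (SE 0.36) on the log2 scale, and fbxc-45 by 1.35 (SE 0.38) and 1.598 (SE 0.36), on L4440 and oma-1 RNAi in that order. fbxc-40 had -2.28 (SE 0.64) and -2.93 (SE 0.60), and fbxc-37 had -2.40 (SE 0.48) and -1.43 (SE 0.48), all called. fbxc-38 was called on L4440 (-1.52, adjusted p = 0.0483; -1.03 and 0.354 on oma-1 RNAi), and fbxc-39 on oma-1 RNAi (-1.19, adjusted p = 0.0322; -0.47 and 0.544 on L4440). fbxc-18 was not called on either food (-1.02 and -0.76, adjusted p = 0.0968 and 0.26). fbxc-28 was called on each food and fbxc-23 on neither, although fbxc-23 on oma-1 RNAi (-1.61, adjusted p = 0.0772) was called in the fit with the replicate block (-1.57, adjusted p = 0.0312).

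These single-food calls rested on few libraries. Without the first mutant library on L4440 or the second wild-type library on oma-1 RNAi, 0 of the 12 tested genes fell on the food concerned. On L4440 the fbxc-38 call was lost in 10 of the 15 alternative fits, with a log2 change of -0.51 (adjusted p = 0.793) without the first wild-type library there and -1.35 (0.332) without the first mutant library. fbxc-37 lost its call on that food with DESeq2 (0.063) and without the first mutant library (0.0572), and fbxc-40 with DESeq2 (0.0917), without the second wild-type library (0.0861) or without the first mutant library (0.295). fbxc-28 lost its call there in 5 alternative fits (adjusted p from 0.0607 to 0.116), and fbxc-45 with DESeq2 (0.0712), without the first wild-type library (0.0828) or the second mutant library (0.0972), while fbxc-44 kept its call in all 15. On oma-1 RNAi fbxc-37 and fbxc-39 each lost their calls in 6 of the 15, DESeq2 among them (0.516 and 0.131). Without the first mutant library on that food their log2 changes were -0.85 (0.538) and -0.67 (0.554), and without the second wild-type library -0.93 (0.488) and -1.06 (0.201). fbxc-40 and fbxc-28 lost theirs without that wild-type library (0.0641 each). The rises of fbxc-44 (0.102) and fbxc-45 (0.0531) on oma-1 RNAi were lost without the first wild-type library there, and that of fbxc-44 also without the first mutant library (0.97, adjusted p = 0.259).

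The test of the difference between the foods gave no call. In that comparison 0 of the 12 tested fbxc genes and 0.0% of all tested genes passed with edgeR, 0 fbxc genes had an unadjusted p under 0.05, and 0 passed with DESeq2. The largest difference among the 10 genes was at fbxc-37, whose genotype effect was weaker on oma-1 RNAi by 0.97 on the log2 scale (95% interval -0.44 to 2.39). A call on one food and not on the other is therefore not shown to be a difference between foods.

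The response to oma-1 RNAi was then compared within each genotype. In wild type 0 of the 12 tested fbxc genes were called with edgeR or with DESeq2, against 0.0438% of all tested genes that rose and 0.0% that fell. An unadjusted p under 0.05 was found at 2 fbxc genes, both X-linked, beside 135 of 4567 tested genes and 14 of 217 X-linked ones. At both genes the first wild-type library on L4440 was the highest, with 1163 CPM at fbxc-37 and 171.9 CPM at fbxc-38. fbxc-37 had a log2 response of -1.05 (SE 0.43, adjusted p = 0.999) and fbxc-38 of -1.05 (SE 0.48, adjusted p = 0.999). With the replicate number as a block, fbxc-37 passed (-1.09, adjusted p = 0.028), where 0.416% of all tested genes fell. It also passed without the second wild-type library on L4440 (-1.53, adjusted p = 0.018), which leaves the high first library, with 1163 CPM, alone in that group. The other 8 genes had responses from -0.28 at fbxc-50 to 0.63 at fbxc-40.

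In the mutant 0 of the 12 were called with edgeR or with DESeq2, 0 had an unadjusted p under 0.05, and 0.0438% of all tested genes rose. Among the 10 genes the responses ran from -1.04 at fbxc-50 (95% interval -2.23 to 0.14) to 0.24 at fbxc-47 (-0.63 to 1.10). The widest interval was at fbxc-40, from -1.84 to 1.82 around -0.01, so responses of several-fold were not detectable at this depth for genes with few reads.

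**Figure D5:**
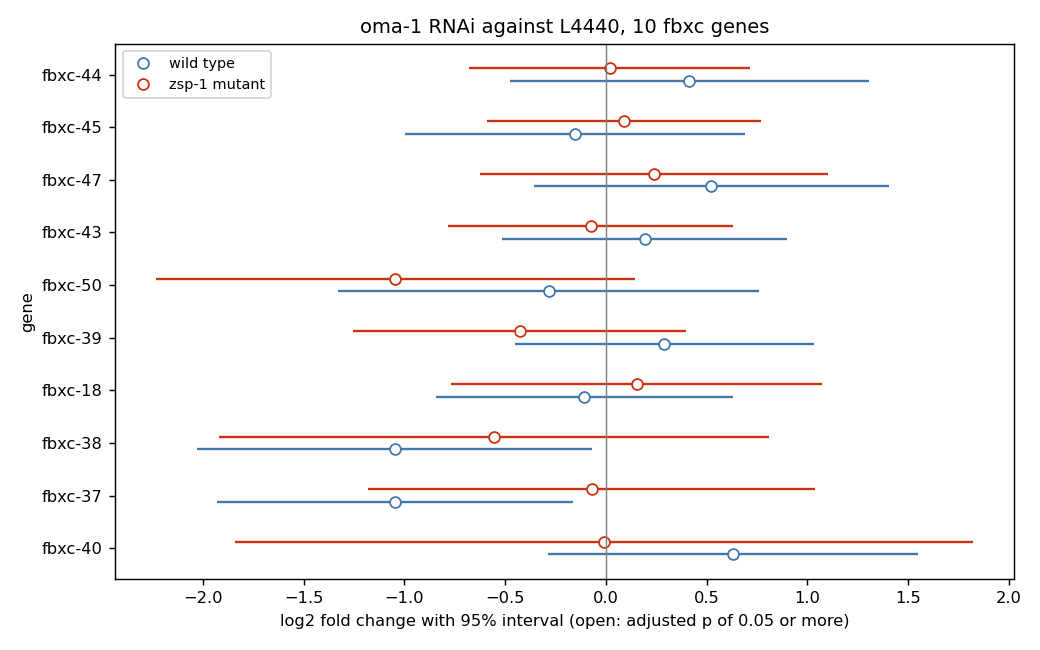
Log2 fold change of oma-1 RNAi against L4440 (horizontal axis) at the 10 fbxc genes in wild type (blue) and in the zsp-1 mutant (red), with approximate 95% intervals. All points are open, since none had an adjusted p under 0.05, and they run from -1.05 to 0.63.

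The other F-box families of the files were read beside fbxc in the same fit. Of 176 fbxa genes 25 (14.2%) had 80 or more reads, and of the 32 tested 12 fell and 5 rose in the mutant, beside 11.8% and 11.3% of all tested genes, with a median log2 fold change of -0.20. Of 106 fbxb genes 15 (14.2%) had 80 or more reads, and of the 16 tested 10 fell and 0 rose, with a median of -1.29. Many of these genes did not reach the filter in each genotype, so that the direction of some was set by the filter, as for 4 of the 7 fbxc falls. Among genes that passed in each genotype, 4 fbxa genes fell and 4 rose of 20 (median -0.03), 3 fbxb genes fell and 0 rose of 7 (-0.60) and 3 fbxc genes fell and 2 rose of 8 (-0.06), beside 7.81% falls and 10.1% rises over all such genes. No difference between the families was tested. The fbxc genes held 0.216% of all reads, the fbxa genes 0.645% and the fbxb genes 0.545%.

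The partners of F-box proteins in the SCF ligase were read from a list chosen by role. Of this list of 38 genes for Skp1-like proteins, the cullin, the RING protein, other F-box adaptors and the neddylation enzymes, 37 were in the files and 15 were tested. Of these 3 fell in the mutant, 0 rose with 4 having an unadjusted p under 0.05 in either direction, and 12 had no call; the median log2 fold change was -0.14. Over all tested genes 11.8% fell and 11.3% rose, and 1413 of 4567 had an unadjusted p under 0.05. Of the 11 SCF genes that passed the filter in each genotype 2 fell and 0 rose, beside 7.81% falls and 10.1% rises over all such genes. skr-21, an X-linked gene for a Skp1-related protein, fell from 366 ± 74.5 to 108 ± 33.0 CPM (SD, n = 4 each, log2 -1.84, SE 0.26, adjusted p = 3.3e-06). skr-18, of the same family, fell to 26.1 ± 7.33 CPM from 72.0 ± 19.3 CPM in wild type (SD, n = 4 each; adjusted p = 0.00807), a call lost under DESeq2 (0.0803) and without the second wild-type library on oma-1 RNAi (0.115). The mutant libraries of skr-18, at 17.4 to 35.2 CPM, did not reach the filter. It passed through wild-type libraries alone and had to be lower in the mutant. sel-10, which encodes an F-box protein with WD repeats that acts on the Notch receptor LIN-12, fell as well, with -0.80 as its log2 change (SE 0.25, adjusted p = 0.0174). Its call was lost with DESeq2 (0.154), with no filter (0.0563) and without the second wild-type library on L4440 (0.0925) or on oma-1 RNAi (0.0669), the first (0.102) or second (0.0633) mutant library on L4440, or the first mutant library on oma-1 RNAi (0.118). skr-10 was not called (-0.57, adjusted p = 0.141), but was with the replicate numbers as a block (adjusted p = 0.0375). The cullin gene cul-1 (log2 0.07, adjusted p = 0.91), which overlaps another gene on the same strand, and the RING gene rbx-1 (-0.57, 0.437) were not called.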

How the data were processed

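Each of the 8 libraries has 1 file, in which the authors deposited unnormalized read counts for 20191 genes. Per the labels' protocols, RNAs of about 18 to 35 nt were cut from a gel of 20 µg total RNA and cloned without need of a 5′ monophosphate. The submitters' processing notes name featureCounts 1.6.0, TopHat2 2.1.1, cutadapt 1.14 and build WBcel235. For strand, length filter and multi-mapping, the settings were not given in the sources used here, so sense and antisense reads cannot be told apart.

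The fit used edgeR 4.0.16 (R 4.3.3) on 4567 genes kept by filterByExpr (minimum count 10), with TMM scaling, 4 group means and quasi-likelihood tests, Benjamini-Hochberg adjustment over all tested genes within each of 6 comparisons, and calls under 0.05. SE are the log2 change over the root of F. DESeq2 1.42.0 (no independent filtering), 2 other scalings, 2 other filters, a replicate block, the removal of overlapping genes and 8 fits without 1 library each were the alternatives. A gene passed the filter in a genotype where at least 2 of its libraries reached 48.1 CPM. The fit was tested on simulated data. The labels number replicates 1 and 2 in every group. Differences of replicate 1 from 2 correlated between all 6 pairs of groups (r from 0.171 to 0.347 over 4567 genes), so the numbers were taken to pair samples. The main fits and the main exact test of the ratios leave this pairing out, and their p-values ignore it. Versions with the replicate number as a block are given as alternatives. All fbxc genes with 80 or more reads, the 2 nearest counts below it (with a tie), tested genes and the SCF genes with the smallest p were named; cul-1 and rbx-1 were added by role. Members and lists were chosen with earlier results of these data known. Exact intervals and floors of 3 reads cover counting error only. No sequence is shown.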

Additional observations from a re-analysis of the deposited data

Results flagged for a closer look

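The 12 tested fbxc genes and the share of the family were looked at for a library far from the other 3 of its genotype, in 26 sets of 4 libraries. At fbxc-38 the first wild-type library on L4440 had 171.9 CPM, against 46.3 to 63.4 in the other wild-type libraries, and chance alone gives such a library in about 1 in 20 sets. The same library had the highest level of the other X-linked member, fbxc-37. At fbxc-28 the first mutant library on L4440 had 9.275 CPM, from 3 reads, and the other 3 mutant libraries had 0, so that any read in the fourth library would have set it apart.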

How the results depend on the processing

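Averaged over foods, 7 falls and 2 rises among the tested fbxc genes were counted with TMM, library totals, DESeq2 size factors in edgeR and the replicate block alike. The 4567 tested genes had a median log2 change of -0.078 under TMM and -0.19 under library totals, and each change is read relative to that median. With the DESeq2 test the falls were 3, on L4440 0 falls and 1 rise were left (from 4 and 2), and on oma-1 RNAi 2 falls (from 4). DESeq2 size factors in edgeR also gave 2 falls on oma-1 RNAi. Among genes with 80 or more reads, a filter that removes fbxc-28 and fbxc-23, 2 fell on each food. The replicate block moved the falls in the wild-type response to oma-1 RNAi from 0 to 1; it changed the calls of fbxc-37 there, fbxc-23 on oma-1 RNAi and skr-10, and no other fbxc call. Without single libraries the averaged falls ranged from 3 to 7 and the rises from 2 to 3, on L4440 from 0 to 4 and 1 to 3, on oma-1 RNAi from 0 to 5 and 0 to 2, and the falls in the wild-type response from 0 to 1. No fold change reversed with a call. The ratios of adjacent genes were compared under alternatives chosen after seeing the data: with the replicate numbers as a block the log2 differences, -1.56 and 1.32, had exact p of 0.0556 or 0.125, and without single libraries they ranged from -1.67 to -1.38 and from 1.13 to 1.51. The mean share of reads was 0.253% and 0.188% outside oma-1, and 0.241 to 0.2625% and 0.178 to 0.192% without single libraries. With starts at most 20 kb apart 31 genes were in clusters, and with 100 kb 32. Where no other cause is named, it was not tested.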

Other observations

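Of the fbxc genes with 21 to 78 reads that were too low for the test, 6 can be given as pooled reads with the ratio of their shares of all reads (mutant over wild type, exact 95% interval for counting error only). fbxc-30, which lies in the large cluster, had 24 reads in wild type and 5 in mutants (ratio 0.216, 0.0644 to 0.578). fbxc-32 had 25 and 10 reads (0.415, 0.178 to 0.895) and fbxc-25 had 26 and 10 (0.399, 0.172 to 0.856). fbxc-42, which follows fbxc-39 by 525 bases, had 31 and 25 reads (0.837, 0.474 to 1.47). fbxc-52 had 31 and 35 (1.17, 0.702 to 1.97) and fbxc-26 had 10 and 11 (1.142, 0.440 to 2.999). The spread between libraries is not part of these intervals, so they do not test the genotype.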
